A study of Mus musculus with 12 samples.

Results

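The genes Pdgfra, Cspg4, Olig1, Olig2, Sox10, Lhfpl3, Vcan, Cacng4 and Ptprz1 mark oligodendrocyte precursor cells of the mouse brain. These 9 genes were chosen by name from the 50600 genes of the count table, of which 28849 had at least 1 count, and they were chosen on their measured levels in these same libraries. Their own differences between cell types are therefore a description. Where one of the 9 is said to be called or not called, this gives its place in a fit across all genes and is no test of it, because the same values chose it. All 9 were found in the table. Levels of all but Ptprz1 and Olig2 were higher in every progenitor library than in every stem cell library.

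The libraries came from the dentate gyrus of adult Nestin-GFP mice of 6 to 9 weeks, in which green fluorescent protein (GFP) is driven by the regulatory sequence of Nestin, a gene of neural stem and progenitor cells. GLAST, a glutamate transporter at the surface of astrocytes and stem cells, was the antigen that separated the cell types. Astrocytes carried GLAST and no GFP, progenitors carried GFP and no GLAST, and stem cells carried both. All cells were live and were negative for CD31 (endothelium), CD45 (immune cells) and for O4 and O1, surface lipids of later oligodendrocyte stages, and no antibody against the protein of any of the 9 genes is named. Each library was made from 50 cells with SMART-seq preamplification, with 4 libraries of each cell type and no genetic or drug treatment that differed between them. The paper describes the 4 libraries of a cell type as biological replicates, each from a single mouse brain. The labels do not tie a library to a mouse, so libraries cannot be paired by mouse. The errors cover the spread between these libraries.

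Oligodendrocyte precursor cells are the dividing cells that give rise to myelinating oligodendrocytes and that persist through adult life in grey and white matter. They receive PDGF-AA, a growth factor of neurons and astrocytes, through the receptor encoded by Pdgfra, and they carry the proteoglycan NG2, encoded by Cspg4. The transcription factors encoded by Olig1, Olig2 and Sox10 specify the lineage and are kept as the cells mature, whereas Pdgfra and Cspg4 are switched off when precursors differentiate. Cspg4 is also a gene of mural cells (pericytes and smooth muscle), Pdgfra is also a gene of fibroblasts, and Ptprz1 is also a gene of astrocytes and radial stem cells.

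On GRCm38 (GENCODE M21), Pdgfra (ENSMUSG00000029231) lies at chr5:75152292-75198215 on the plus strand and Cspg4 (ENSMUSG00000032911) at chr9:56865033-56899870 on the plus strand. Olig2 (ENSMUSG00000039830, chr16:91225457-91228677, plus) and Olig1 (ENSMUSG00000046160, chr16:91269772-91271933, plus) are neighbours on chromosome 16. Sox10 (ENSMUSG00000033006) lies at chr15:79154908-79165240 on the minus strand and Lhfpl3 (ENSMUSG00000106379) at chr5:22746059-23275597 on the plus strand. Vcan (ENSMUSG00000021614, chr13:89655312-89742509) and Cacng4 (ENSMUSG00000020723, chr11:107732357-107794557) are on the minus strand, and Ptprz1 (ENSMUSG00000068748, chr6:22875502-23052916) is on the plus strand. Counts were made over the exons without regard to strand. Of the exonic bases, 17.6% in Lhfpl3, 7.26% in Olig1 and 6.50% in Pdgfra are shared with antisense genes or, in Pdgfra, a microRNA, so reads there cannot be assigned to one gene.

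RefSeq windows of 250 bases before the start site were at hand for 6 of the 9 genes (Pdgfra, Cspg4, Olig2, Lhfpl3, Vcan and Ptprz1). Their GC content was 54.4% to 71.6%, beside a median of 52.4% over all 32851 windows. The windows were searched on both strands for ACAAAG and AACAAT, cores of the sites of SOX factors such as SOX10, and for CATATG, an E-box of the kind OLIG factors bind. These letters occur in 16.5%, 9.42% and 3.46% of all windows. Among the 6 genes the only match was in Olig2, shown with 10 bases on each side and the match in capitals. It lies 67 bases before the RefSeq start and inside the gene as GENCODE M21 draws it, at chr16:91225473-91225498 (GRCm38.p6, plus strand). The windows of Pdgfra (chr5:75152001-75152250, plus) and Lhfpl3 (chr5:22745804-22746053, plus), both far higher in progenitors, and of Ptprz1 (chr6:22875252-22875501, plus), whose levels overlapped in the 3 cell types, are shown as a contrast and hold none of the 3 sets of letters.
Olig2 match: ggaaaagcacATTGTTcccgcccccc
Pdgfra: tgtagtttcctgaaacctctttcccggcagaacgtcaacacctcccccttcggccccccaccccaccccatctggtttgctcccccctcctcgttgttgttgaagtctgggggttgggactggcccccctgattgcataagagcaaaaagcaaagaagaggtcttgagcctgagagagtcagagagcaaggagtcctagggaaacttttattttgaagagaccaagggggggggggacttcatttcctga
Lhfpl3: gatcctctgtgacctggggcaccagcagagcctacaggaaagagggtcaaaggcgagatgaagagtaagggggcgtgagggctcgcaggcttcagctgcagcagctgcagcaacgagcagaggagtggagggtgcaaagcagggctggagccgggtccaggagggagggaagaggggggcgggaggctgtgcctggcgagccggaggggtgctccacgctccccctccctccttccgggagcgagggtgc
Ptprz1: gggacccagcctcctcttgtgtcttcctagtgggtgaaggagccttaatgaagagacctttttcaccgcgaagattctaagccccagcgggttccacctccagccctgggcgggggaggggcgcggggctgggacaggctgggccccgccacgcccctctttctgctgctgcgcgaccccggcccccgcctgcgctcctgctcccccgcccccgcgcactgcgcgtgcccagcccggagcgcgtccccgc

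Total counts were 5357232 to 6253680 in astrocytes, 9041498 to 12535028 in progenitors and 5031166 to 10435711 in stem cells. Genes that reached 10 counts numbered 9430 to 11655 in astrocyte libraries, 16389 to 17015 in progenitor libraries and 13368 to 14175 in stem cell libraries. The paper describes the cDNA quality of the astrocytes as suboptimal, and low or 0 counts in astrocytes are to be read with this limit. Stem cell libraries carry the numbers 1 to 4 of their labels, and the astrocyte and progenitor libraries, whose columns carry no number, are called a to d. Levels are counts relative to the library total (CPM), scaled by TMM factors over all 12 libraries, as mean ± SD with n = 4. Differences are log2 fold changes ± SE from edgeR's quasi-likelihood fit across all genes of a pair of cell types. A gene is called where its Benjamini-Hochberg adjusted p in that fit is under 0.05. The 12 astrocyte markers examined, such as Aldoc and Gja1, reached 10 counts in every library, with summed levels of 19790 to 26400 CPM in astrocytes, 30600 to 39060 CPM in stem cells and 9160 to 12290 CPM in progenitors. They include Slc1a3, the gene of GLAST, on which the cells were sorted. The 12 markers of neuronal progenitors, such as Eomes and Dcx, summed to 1457 to 2216 CPM in progenitors, 44.1 to 761 CPM in astrocytes and 40.9 to 65.0 CPM in stem cells.

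Pdgfra, the receptor through which precursors divide in response to PDGF, had 5770, 4786, 9378 and 7721 counts in progenitor libraries a to d and 4, 2, 42 and 1 counts in stem cell libraries 1 to 4. In astrocyte libraries a to d it had 1266, 37, 8 and 4 counts. Every progenitor library was above every other library, and astrocyte library a stood far above the other astrocyte libraries. Mean levels were 582 ± 228 CPM in progenitors, 1.53 ± 2.49 CPM in stem cells and 69.7 ± 133 CPM in astrocytes. Relative to stem cells, the log2 fold change of progenitors was 8.49 ± 0.94, and 10.8 ± 0.53 without stem cell library 3. Relative to astrocytes it was 3.11 ± 1.49 and was not called, and without astrocyte library a it was 7.54 ± 0.85 and was called. Astrocyte library a also held the most Mbp, a myelin gene (10025 counts, beside 3445, 1215 and 254 in b to d), the highest sum of neuronal progenitor markers among astrocytes (761 CPM) and the highest sum of fibroblast markers among them (271 CPM, with 491 counts of Slc6a13), and the part of these in its Pdgfra level was not tested. In these libraries of pooled cells, fewer cells of a type and less RNA per cell cannot be told apart.

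Cspg4, the NG2 proteoglycan, had 5278, 3116, 6181 and 4737 counts in progenitor libraries a to d, 44, 11, 2 and 33 in astrocyte libraries a to d, and 3, 8, 6 and 21 in stem cell libraries 1 to 4. The progenitor libraries did not overlap with the others. Its mean level was 400.2 ± 130 CPM in progenitors, 4.63 ± 4.15 CPM in astrocytes and 1.5 ± 1.63 CPM in stem cells. Its log2 fold change was 8.14 ± 0.69 over stem cells (9.15 ± 0.51 without stem cell library 4) and 6.46 ± 0.88 over astrocytes.

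Vcan encodes versican, a large proteoglycan of the extracellular matrix. It had 3680, 2169, 4368 and 4459 counts in progenitor libraries a to d, 110, 353, 90 and 268 in astrocyte libraries a to d, and 385, 526, 452 and 50 in stem cell libraries 1 to 4. Unlike Cspg4, it was detected well above 10 counts in all 12 libraries, and the progenitors were again higher without overlap. Mean levels were 305 ± 106 CPM in progenitors, 40.1 ± 23.0 CPM in astrocytes and 43.5 ± 25.7 CPM in stem cells. On the log2 scale the fold change was 2.78 ± 0.53 over stem cells and 2.93 ± 0.54 over astrocytes.

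Ptprz1, a receptor-type tyrosine phosphatase that binds pleiotrophin and tenascins, was the most abundant of the 9 genes in astrocytes and stem cells. It had 18491, 15383, 21774 and 16335 counts in progenitor libraries a to d, 4294, 11902, 9441 and 6949 in astrocyte libraries a to d, and 20007, 11483, 15190 and 9187 in stem cell libraries 1 to 4. Scaled for depth, the cell types overlapped, with 1492 ± 352 CPM in progenitors, 1593 ± 548 CPM in astrocytes and 1789 ± 241 CPM in stem cells. Its log2 fold change in progenitors was -0.30 ± 0.18 relative to stem cells and -0.10 ± 0.29 relative to astrocytes, and neither was called.

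Olig1 and Olig2 encode related basic helix-loop-helix factors of the lineage. Olig1 had 15561, 11167, 11507 and 14412 counts in progenitor libraries a to d, 190, 159, 902 and 727 in astrocyte libraries a to d, and 1035, 1006, 531 and 235 in stem cell libraries 1 to 4. It was present in every library and higher in all progenitor libraries than in any other, at 1076 ± 126 CPM beside 99.0 ± 75.4 CPM in astrocytes and 86.8 ± 39.2 CPM in stem cells. For Olig1 the log2 fold change was 3.60 ± 0.32 over stem cells and 3.43 ± 0.58 over astrocytes.

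Olig2, the factor needed to set up the lineage, had 316, 305, 240 and 194 counts in progenitor libraries a to d, 2, 28, 89 and 0 in astrocyte libraries a to d, and 12, 45, 145 and 64 in stem cell libraries 1 to 4. Its progenitor libraries were even, and the highest library of each other cell type reached into their range. Levels were 21.5 ± 3.63 CPM in progenitors, 5.78 ± 8.2 CPM in astrocytes and 9.28 ± 7.34 CPM in stem cells. For Olig2 the log2 fold change was 1.17 ± 0.75 over stem cells and 1.86 ± 1.45 over astrocytes, and neither was called. Without astrocyte library c, the astrocyte library with the most Olig2, the second value was 3.52 ± 1.53 and was still not called.

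Sox10, which acts with the OLIG factors and activates myelin genes, had 2163, 1359, 2077 and 2675 counts in progenitor libraries a to d, 2, 0, 2 and 29 in astrocyte libraries a to d, and 1, 1, 23 and 16 in stem cell libraries 1 to 4. Progenitors were higher without overlap, at 171 ± 50.8 CPM beside 1.69 ± 2.83 CPM in astrocytes and 1.52 ± 1.62 CPM in stem cells. The log2 fold change was 6.83 ± 0.89 over stem cells and 6.66 ± 1.32 over astrocytes. It was 7.48 ± 1.00 without stem cell library 3 and 9.25 ± 1.00 without astrocyte library d. Astrocyte library d also held microglial genes, with 674 counts of C1qb, 111 of Fcrls and 89 of Cx3cr1, beside at most 2 counts of each in the other astrocyte libraries, and their part in its Sox10 level was not tested. These genes were picked after their values were seen, and CD45, the immune marker, was gated out in the sort.

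Lhfpl3 encodes a tetraspan membrane protein. It had 3760, 2515, 4375 and 4162 counts in progenitor libraries a to d and 79, 2, 8 and 71 in stem cell libraries 1 to 4, whereas astrocyte libraries a to d held 0, 1, 3 and 3 counts. The astrocytes were therefore at or under a floor of 3 counts in each library. Levels were 308 ± 89.2 CPM in progenitors and 5.64 ± 6.15 CPM in stem cells, with a log2 fold change of 5.75 ± 0.93, or 6.54 ± 1.00 without stem cell library 4. Against the floor in astrocytes, the mean level in progenitors was at least 514-fold higher. This bound covers counting only and does not account for the fewer genes detected in astrocyte libraries.

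Cacng4 encodes a small transmembrane protein that travels with AMPA-type glutamate receptors. It had 566, 296, 822 and 457 counts in progenitor libraries a to d and 2, 7, 5 and 52 in stem cell libraries 1 to 4, and a single count in astrocyte library d was the only one in astrocytes. Progenitors were higher without overlap, at 44.7 ± 21.9 CPM beside 2.85 ± 4.55 CPM in stem cells. The log2 fold change over stem cells was 3.94 ± 1.12 and was not called, and without stem cell library 4 it was 6.23 ± 0.78 and was called. The progenitor mean was at least 74.7-fold higher than the floor of 3 counts in each astrocyte library.

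**Figure D1:**
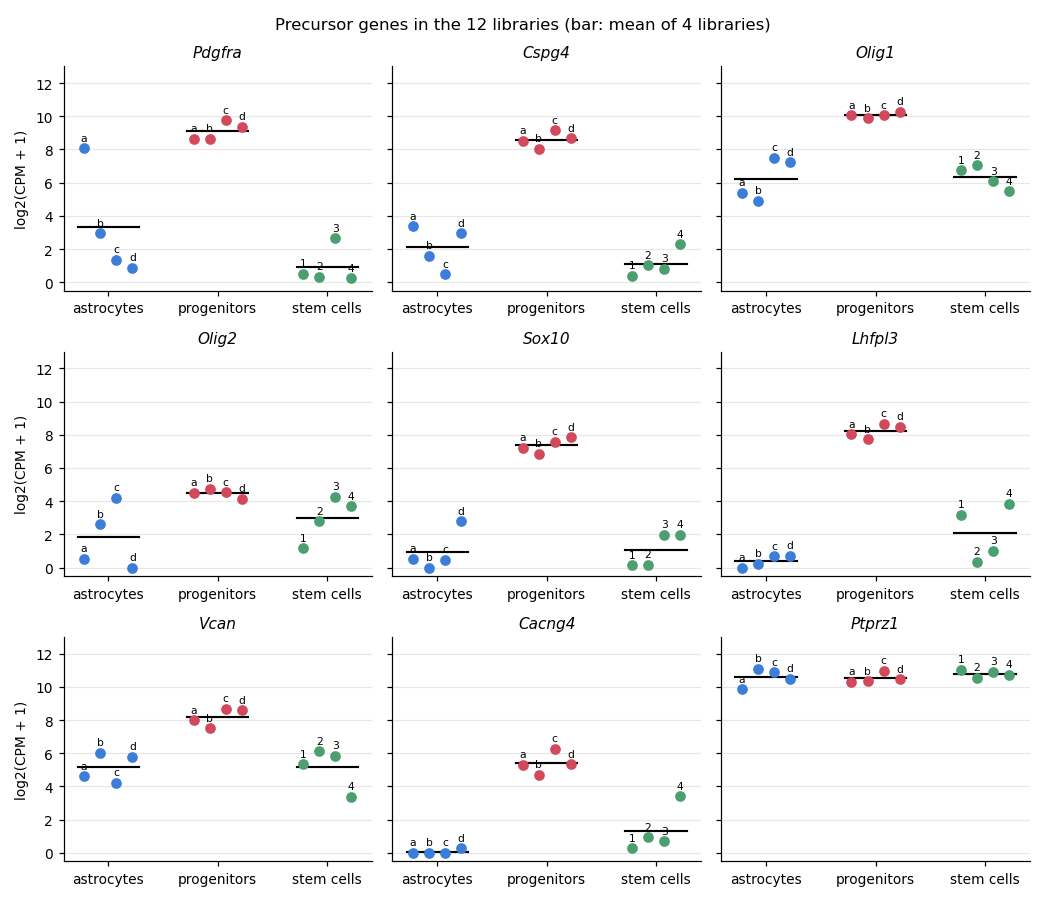
Levels of the 9 genes as log2(CPM + 1) on the vertical axis, with a panel for each gene, a point for each of the 12 libraries labelled a to d or 1 to 4, and a black bar at the mean of the 4 points. Progenitor points lie above all others for 7 genes, those of Olig2 and Ptprz1 overlap with the other cell types, and astrocyte library a stands apart for Pdgfra.

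Of the 9 genes, 6 were called higher in progenitors than in stem cells (Pdgfra, Cspg4, Olig1, Sox10, Lhfpl3 and Vcan), where 4.95% of the 15427 genes tested were called higher in progenitors and 8.6% were called in either direction. The 4 progenitor libraries lay above all 4 stem cell libraries for 7 of the 9, beside 11.8% of all genes. Against astrocytes, 6 were called higher (Cspg4, Olig1, Sox10, Lhfpl3, Vcan and Cacng4), beside 6.18% called higher and 8.63% called in either direction among 14806 genes, and 7 did not overlap, beside 15.2%. These shares stand beside the counts as a description, since the genes were chosen from the same contrasts. Each of the 9 genes reached 10 counts in all 4 progenitor libraries and so passed the count filter on those libraries alone. The median log2 fold change of the 9 genes was 3.94 over stem cells and 3.43 over astrocytes, beside 0.04 and -0.03 for all genes tested. Both comparisons use the same progenitor libraries.

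Between astrocytes and stem cells, 5 of the 9 genes passed the filter (Cspg4, Olig1, Olig2, Vcan and Ptprz1). These values too were known when the genes were chosen, so the counts that follow are no test of them. With edgeR, 0 of the 5 were called and 0 had an unadjusted p under 0.05, and DESeq2 called 0. In all, edgeR called 0.0468% of 12831 genes tested and DESeq2 called 635 genes. The log2 fold changes for astrocytes over stem cells were 1.60 ± 1.26 for Cspg4, 0.18 ± 0.69 for Olig1, -0.68 ± 1.59 for Olig2, -0.12 ± 0.84 for Vcan and -0.17 ± 0.27 for Ptprz1. The median was -0.12, beside 0.14 for all genes. The value for all genes fell to 0.02 to 0.04 with any 1 astrocyte library left out, where the count filter asked for 3 libraries and so kept another set of genes. With errors of this size, differences of several-fold in Cspg4 and Olig2 could not be detected, whereas the error of Ptprz1 was small. Cacng4, under the filter, was higher in each stem cell library than in each astrocyte library, but that order rests on 2 counts in stem cell library 1 and 1 count in astrocyte library d.

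**Figure D2:**
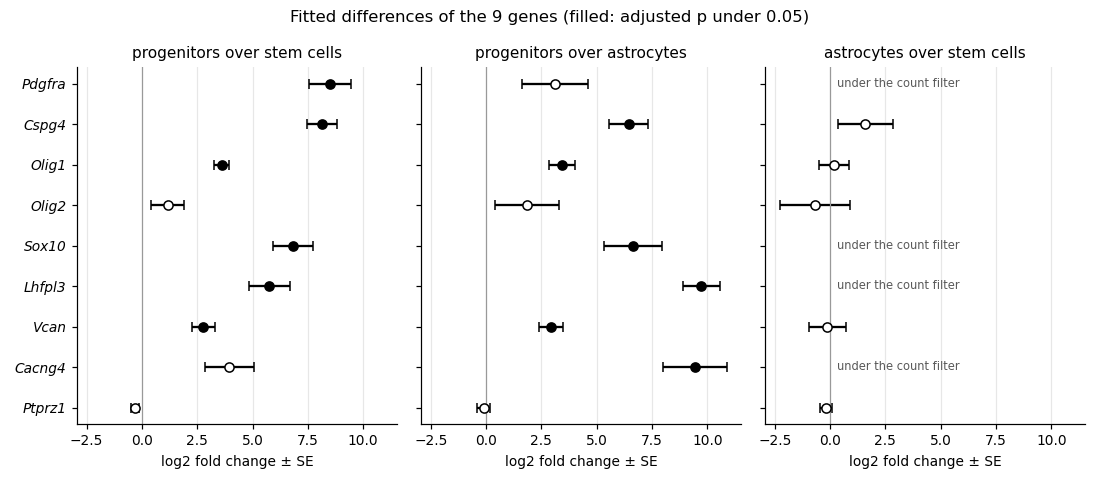
Log2 fold change of each gene on the horizontal axis with bars of 1 SE, in 3 panels for the 3 pairs of cell types, with filled points where the adjusted p of the fit across all genes was under 0.05. Points of Olig2 and Ptprz1 are open in every panel, the points of Lhfpl3 and Cacng4 over astrocytes are fitted values against libraries at the floor, and 4 genes were under the count filter in the last panel.

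Per kb of exon, the highest level in progenitors was that of Olig1 (498 ± 58.2 CPM per kb), followed by Ptprz1 (105 ± 24.7), Lhfpl3 (95.7), Pdgfra (58.0 ± 22.7), Sox10 (56.0), Cspg4 (33.5), Vcan (21.1), Cacng4 (12.5) and Olig2 (8.50). In this order, 7 of the 8 neighbouring pairs overlapped between libraries. The exception was Olig1, which was above Ptprz1 in all 4 libraries. In astrocytes and stem cells Ptprz1 came first and Olig1 second on the same scale, with Ptprz1 at 112 ± 38.5 CPM per kb in astrocytes. The spread between the 4 progenitor libraries was not the same for each gene. The ratio of the highest to the lowest library was 2.19 for Pdgfra and 1.33 for Olig1.

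**Figure D3:**
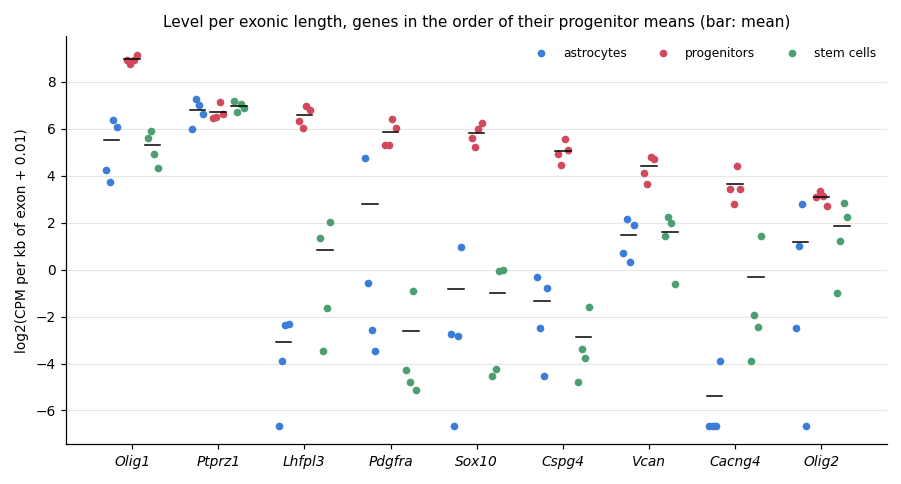
Level per kb of exon as log2(CPM per kb + 0.01) on the vertical axis for the 9 genes, ordered from left to right by the progenitor mean, with a point for each library coloured by cell type and a black bar at the log2 of the mean. Olig1 leads in progenitors and Ptprz1 in astrocytes and stem cells, while points at the foot of the plot are libraries with 0 counts.

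The progenitor libraries differed in order. Library c was the highest of the 4 for 6 of the 9 genes (Pdgfra, Cspg4, Lhfpl3, Vcan, Cacng4 and Ptprz1), library d for Olig1 and Sox10, and library b for Olig2. Library b was the lowest for 6 genes. The 9 genes together summed to 3812, 3433, 5610 and 4743 CPM in libraries a to d. Even the lowest of these was above the highest sum in astrocytes (2282 CPM) and stem cells (2209 CPM). Without Ptprz1, the sums were 2148 to 3598 CPM in progenitors, 108 to 344 CPM in astrocytes and 94.7 to 208 CPM in stem cells.

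Across the 12 libraries, the log2(CPM + 1) of a gene was compared with the mean of the other 8. Pearson's r was 0.97 for Sox10, 0.96 for Cspg4, 0.93 for Lhfpl3 and for Cacng4, 0.88 for Olig1, 0.83 for Vcan, 0.79 for Pdgfra, 0.57 for Olig2 and -0.22 for Ptprz1. These values mostly describe the split between progenitors and the other libraries, which also differ in depth. By the same measure, the genes outside the 9 that were most like their mean, among 16119 genes with at least 10 counts in 4 libraries, were Cntnap5b, Trav3-3, Fam19a4, Ifit2, Galnt13, Serinc2, Sez6, Sema3d, Fam89a and Brinp1. Their r was 0.993 to 0.995. Brinp1 had 121 ± 11.6 CPM in progenitors and at most 2.60 CPM in any other library. Sema3d, a secreted guidance protein, had 98.4 ± 17.7 CPM in progenitors and at most 0.395 CPM elsewhere.

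Genes of the lineage outside the 9 were taken from 4 lists. Of 20 other genes of precursor identity, 14 were called higher and 2 lower in progenitors than in stem cells, with a median log2 fold change of 5.88, or 5.28 with the 4 genes at the floor set to their bound. Against astrocytes, 8 were called higher and 1 lower, with a median of 3.51. Neu4, a sialidase, had 3013, 2540, 3853 and 3981 counts in progenitor libraries a to d, at most 4 in any astrocyte library, and 3, 5, 148 and 3 in stem cell libraries 1 to 4. It was called in both comparisons (edgeR adjusted p = 0.0135 over stem cells and 0.000215 over astrocytes), with all 4 progenitor libraries above all others. Chst5, a sulfotransferase, had 0 counts in all astrocyte libraries and 259 to 589 in progenitors, with a progenitor mean at least 57.4-fold above the astrocyte floor. The progenitor mean of Rprm was at least 131-fold above the stem cell floor. Against astrocytes Rprm was not called (edgeR adjusted p = 0.29), with 80 counts in astrocyte library c. Without that library Rprm was called (log2 fold change 8.56 ± 1.41). C1ql1, a secreted synaptic protein, had 10.3 ± 6.26 CPM in progenitors, a mean at least 25.2-fold above the stem cell floor. Progenitor library a, at 1.85 CPM, was far below that mean. The call of C1ql1 over astrocytes was lost without astrocyte library b or any of progenitor libraries b, c and d (edgeR adjusted p = 0.0618 to 0.0821).

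Not all genes of that list were higher in progenitors. Luzp2 was called lower in progenitors than in stem cells (382 ± 26.4 against 733 ± 39.2 CPM) and Cspg5, a proteoglycan that astrocytes also carry, was called lower than in either other cell type. Sox6, a SOX factor of precursors and stem cells, had 233 ± 43.8 CPM in progenitors, 178 ± 50.8 CPM in stem cells and 347 ± 160 CPM in astrocytes, which overlapped, as Ptprz1 did. Luzp2, Cspg5 and Sox6 were picked after their values were seen.

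Among 12 transcription regulators of the lineage, 4 of 10 tested were called higher over stem cells and 1 higher and 1 lower over astrocytes. Zfp488, a transcriptional repressor that promotes oligodendrocyte differentiation, had 353, 793, 536 and 1006 counts in progenitor libraries a to d and 0 in every stem cell library, so that the progenitor mean was at least 139-fold above the floor. In astrocytes it had 162, 0, 0 and 1 counts, the 162 again in library a, and the difference was not called (edgeR adjusted p = 0.49). Without astrocyte library a it was called, with a log2 fold change of 9.47 ± 1.31. Myt1, a zinc finger factor, was called in both comparisons, at 70.3 ± 15.9 CPM in progenitors beside 1.06 ± 1.99 CPM in stem cells and 0.99 ± 1.85 CPM in astrocytes. Over astrocytes that call held in 7 of 14 fits and was lost without astrocyte library d (edgeR adjusted p = 0.0648) or any 1 of the 4 progenitor libraries (0.0818 to 0.108), and over stem cells it was lost without progenitor library d (0.0520). Zeb2 was called higher than in stem cells (log2 fold change 1.45 ± 0.26), and Chd7, a chromatin remodeller, was called lower than in astrocytes (-1.63 ± 0.40, in 9 of 15 fits, and not without astrocyte library b or progenitor library a, c or d, at an edgeR adjusted p of 0.0651 to 0.105).

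Of 12 genes of committed precursors and newly formed oligodendrocytes, 4 of 10 tested were called higher over stem cells, and 4 higher and 1 lower over astrocytes. Gpr17, a receptor that marks committed precursors, had 3000, 2316, 5273 and 4645 counts in progenitor libraries a to d, at most 5 in astrocytes, and 1, 42, 129 and 6 in stem cell libraries 1 to 4. Its progenitor level was 322 ± 145 CPM, and it was called in both comparisons in each of the 14 fits that tested it. Bmp4, a secreted growth factor, had 21, 61, 144 and 419 counts in progenitor libraries a to d and 0 in all others. Its call over astrocytes was lost without progenitor library b, c or d (edgeR adjusted p = 0.0551 to 0.0732). Mycl rose in the same way, from at most 3 counts in the other cell types to 155, 253, 849 and 898 in progenitor libraries a to d, and its call over astrocytes was lost without c (edgeR adjusted p = 0.0509) or d (0.0510). Lims2, an adhesion adaptor, had a progenitor mean at least 208-fold above the astrocyte floor. Over stem cells Lims2 was not called (edgeR adjusted p = 0.0525), but it was without stem cell library 2, which held 116 of its counts (9.29 ± 0.83). Enpp6, of the same list and picked after its values were seen, was at 0 counts in all progenitor libraries and in all astrocyte libraries.

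Of 14 myelin genes, 9 were tested over stem cells and 7 over astrocytes. Ugt8a, which makes the lipid galactosylceramide, was the only one called higher in progenitors, in both comparisons, with 296 to 922 counts there and at most 1 in any other library. Mbp, myelin basic protein, was called lower than in astrocytes (52.0 ± 13.8 against 764 ± 945 CPM, edgeR adjusted p = 0.0264), with overlap between the libraries, and that call was lost without any 1 of the 4 progenitor libraries (0.0733 to 0.0859). The summed level of the 14 genes was 324 to 483 CPM in progenitors, 483 to 880 CPM in stem cells and 338 to 3234 CPM in astrocytes. Opalin, picked after its values were seen, was at 0 counts in all 12 libraries. Over the 4 lists, 23 genes were called higher and 2 lower of 49 tested over stem cells, and 14 higher and 4 lower of 47 over astrocytes, beside 8.6% and 8.63% of all genes called in either direction. Between astrocytes and stem cells, edgeR called 0 of 30, with 6 at an unadjusted p under 0.05, beside 0.0468% of 12831 genes called. DESeq2 called 3 of 28 there, beside 635 genes called in all. The lists were drawn up with earlier results of these libraries known, and the number called in them is given without a test of the list.

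**Figure D4:**
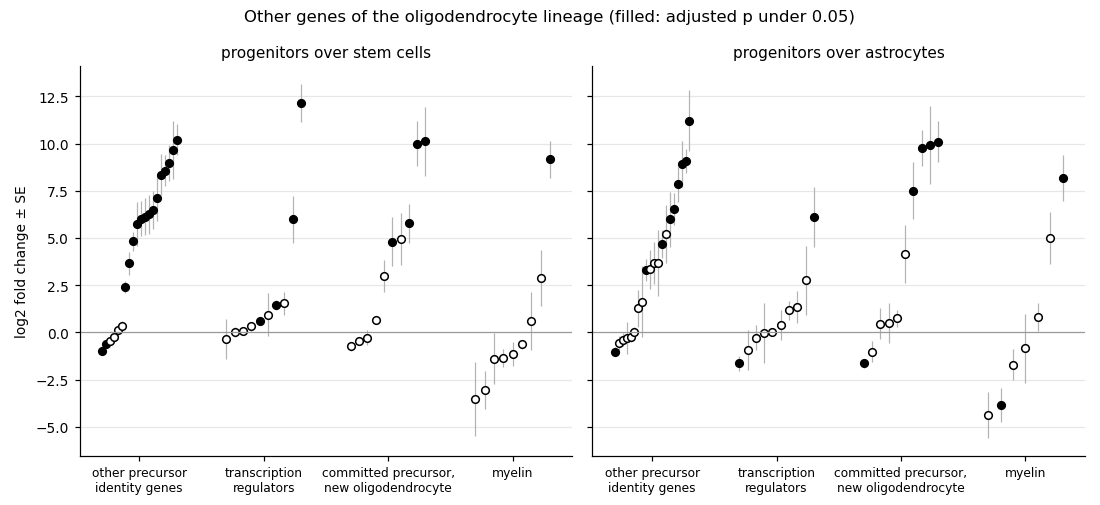
Log2 fold change with bars of 1 SE on the vertical axis for the genes of 4 lists of the oligodendrocyte lineage outside the 9, with a panel for progenitors over stem cells and a panel for progenitors over astrocytes, genes sorted within a list and filled points where the adjusted p was under 0.05. Filled points above 0 are most numerous among the other precursor identity genes (14 over stem cells and 8 over astrocytes), and the myelin genes have 1 in each panel. Large values come from genes at or near 0 counts in the other cell type.

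Partners of the 9 proteins were mixed. Of 12 ligands, receptors and matrix partners, 10 were tested in each comparison. Of these, 2 were called higher and 2 lower over stem cells, and 2 higher and 0 lower over astrocytes. Of all genes tested, 8.6% and 8.63% were called in either direction. The median log2 fold change of the partners was -0.17 and 0.40. Pdgfa, the ligand of the Pdgfra product, had 494, 136, 165 and 103 counts in progenitor libraries a to d, 1, 2, 1 and 0 in astrocyte libraries a to d, and 401, 53, 29 and 132 in stem cell libraries 1 to 4. Progenitors and stem cells overlapped, while the progenitor mean was at least 29.0-fold above the astrocyte floor (edgeR adjusted p = 0.0163, and 0.05001, no longer called, without progenitor library c). Tnr, a tenascin that binds the Ptprz1 product and lecticans, was 234 ± 69.4 CPM in progenitors and 3.43 ± 4.87 CPM in stem cells (called), and 18.3 ± 26.7 CPM in astrocytes (edgeR adjusted p = 0.0827, and 0.0250 without astrocyte library b, with 315 counts). Cntn1, a contactin of the same complex, was called higher in both comparisons, at 548 ± 140 CPM beside 143 ± 93.6 CPM in stem cells and 108 ± 87.2 CPM in astrocytes. The calls of Cntn1 were lost without progenitor library c or d in both comparisons (edgeR adjusted p = 0.0551 to 0.0764), without progenitor library a over astrocytes (0.0512) and without stem cell library 2 or 4 over stem cells (0.0513 and 0.0604). Hapln1, a link protein, was called lower in progenitors (60.9 ± 11.8 CPM) than in stem cells (153 ± 58.1 CPM), though not without progenitor library b or d (edgeR adjusted p = 0.0566 and 0.0621). Ptn, the pleiotrophin gene, picked after its values were seen, was also called lower there (885 ± 159 against 1628 ± 398 CPM).

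In the families of the 9 genes (16 relatives), 8 were tested over stem cells, of which 1 was called higher and 1 lower. Over astrocytes 9 were tested, of which 1 was called higher and 0 lower. Of all genes tested, 8.6% and 8.63% were called in either direction. Acan, the lectican aggrecan and a relative of Vcan, had 5.0 ± 3.56 CPM in progenitors and 0 counts in all other libraries, and it was called in both comparisons, over astrocytes not without progenitor library c (edgeR adjusted p = 0.0533). Sox9, a SOX factor of astrocytes and stem cells, was called lower in progenitors (99.2 ± 9.48 CPM) than in stem cells (329 ± 73.7 CPM). Olig3, the third OLIG gene, picked after its values were seen, had 48 counts in progenitor library d and 0 in the other 11 libraries.

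Since Cspg4 and Pdgfra are not limited to precursors, markers of mural cells and fibroblasts are given beside them. Of 12 mural markers, 12, 6, 10 and 10 reached 10 counts in progenitor libraries a to d, with summed levels of 3113, 59.4, 2317 and 967 CPM. The sums were 57.9 to 214 CPM in astrocytes and 105 to 145 CPM in stem cells. Of these markers, 8 were tested over stem cells and 6 over astrocytes. Over stem cells 1 was called higher, Vtn (vitronectin), which had 13772, 15, 16419 and 9094 counts in progenitor libraries a to d. Over astrocytes 0 were called, 3 had an unadjusted p under 0.05 in edgeR, and DESeq2 called 2. Of all genes tested, edgeR called 8.6% and 8.63% in either direction. With a library left out, 0 to 3 mural markers were called over astrocytes (3 without progenitor library b), and Vtn was called without astrocyte library b, which held 569 of its counts (log2 fold change 9.14 ± 1.96). The defining markers Rgs5 and Kcnj8 had 2009 and 751 counts in progenitor library a, 2920 and 2490 in c, 677 and 203 in d, and 3 and 3 in b, and Acta2 of smooth muscle had 12275, 11, 6 and 59 counts in a to d. In library b, where the summed level of mural markers was below that in every stem cell library and Pdgfrb, with 440 counts, was their largest part, Cspg4 had 3116 counts (260.3 CPM) and Pdgfra 4786 counts (399.8 CPM). Both were the lowest or close to the lowest of the 4 progenitor libraries, and both were far above every stem cell library. Library b is 1 library, singled out after its values were seen, and the part of mural cells in the Cspg4 and Pdgfra levels was not tested. Rgs5, Kcnj8, Acta2 and Pdgfrb were picked after their values were seen.

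Of 10 fibroblast and leptomeningeal markers, 4, 3, 6 and 9 reached 10 counts in progenitor libraries a to d. Their summed levels were 1084, 88.2, 1591 and 1318 CPM, of which Vtn, a gene of both lists, made up 944.5 CPM in a, 1517 CPM in c and 782 CPM in d. Without Vtn the sums were 140 CPM in a, 87.0 CPM in b, 74.6 CPM in c and 536 CPM in d, so that only d stood apart. Progenitor library d held the defining markers Dcn (598 counts), Lum (145) and Slc6a13 (2319), and Dcn and Lum had at most 5 counts in the other progenitor libraries. Dcn and Lum were at 0 in all astrocyte and stem cell libraries. Library c held 5 counts of Dcn and 0 of Lum, but also 237 of Serping1, 201 of Col1a2, 131 of Slc6a13 and 112 of Igf2. Pdgfra was 664 CPM in library d and 866 CPM in library c, and the part of these markers in its level was not tested. Of this list, 3 genes were tested in each comparison of progenitors and 1 was called higher in each, Vtn over stem cells and Serping1 over astrocytes. Of all genes tested, 8.6% and 8.63% were called in either direction. Serping1 was called over astrocytes in all 14 fits, and over stem cells in 1 of 14, without stem cell library 1. The sums were 54.9 to 271 CPM in astrocytes and 19.5 to 51.5 CPM in stem cells. Dcn, Lum, Slc6a13, Col1a2 and Igf2 were picked after their values were seen.

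Markers of neuronal progenitors were in the same progenitor libraries as the 9 genes. Of 12 such markers, 8 of 10 tested were called higher over stem cells and 4 over astrocytes, among them Igfbpl1 and Dcx in both, Neurod1 over stem cells and Eomes over astrocytes. Eomes was also called over stem cells without stem cell library 2 (8.38 ± 1.29), and Neurod1 over astrocytes without astrocyte library a, which held 548 of its counts (9.01 ± 1.26). Dcx, of migrating young neurons, had 230 ± 64.7 CPM in progenitors, 2.47 ± 4.24 CPM in stem cells and 0.30 ± 0.21 CPM in astrocytes. Progenitor library c, highest for 6 of the 9 genes, had the lowest sum of neuronal markers (1457 CPM), and library b, lowest for 6 of the 9, had the highest (2216 CPM). Library d was above library a in both sums, with 4743 against 3812 CPM for the 9 genes and 2106 against 1905 CPM for the neuronal markers. With 4 libraries these orders were not tested. Of 12 astrocyte markers, 11 were called lower over stem cells, among them Agt, Aldoc, Gja1 and Slc4a4, and 6 were called lower over astrocytes (1 to 9 with a library left out, 1 without progenitor library c and 9 without astrocyte library a), while all 12 reached 10 counts in every progenitor library. Of all genes, 8.6% and 8.63% were called in either direction. The list includes Slc1a3, the gene of the sort antigen GLAST, so it is not independent of the gate. The part of the gate in these calls was not tested. Of 11 radial stem cell markers, 8 were tested over stem cells and 9 over astrocytes. Hopx was called lower than in stem cells, and Tfap2c, at 4.91 ± 1.04 CPM in progenitors and 0 counts in all others, was called higher in both comparisons.

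Markers of endothelium (10 genes, led by Itm2a and Esam) summed to 38.9 to 102 CPM in progenitors, 3.62 to 133 CPM in astrocytes and 1.13 to 242 CPM in stem cells. Of this list, edgeR called 0 of 2 tested in each comparison of progenitors, with 0 at an unadjusted p under 0.05, and DESeq2 called 0. Without astrocyte library b, which held 282 of its counts, Itm2a was called over astrocytes (log2 fold change 11.6 ± 1.60).

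**Figure D5:**
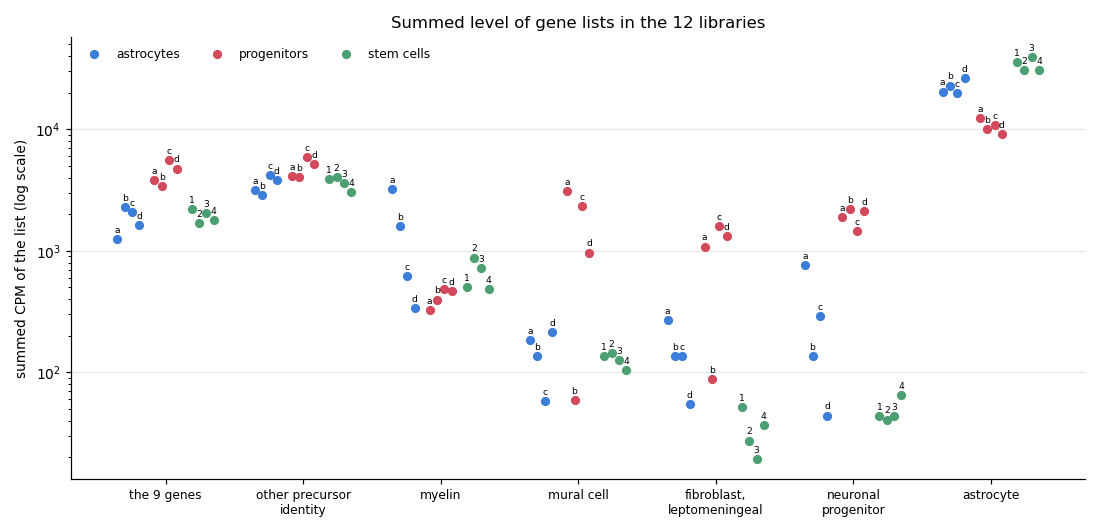
Summed CPM of 7 gene lists on a log scale, with a point for each of the 12 libraries labelled a to d or 1 to 4 and coloured by cell type. The 9 genes are highest in the 4 progenitor libraries, mural markers are high in progenitor libraries a, c and d and not in b (59.4 CPM), and the fibroblast sums of a and c are mostly Vtn, a gene that both lists hold.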

How the data were processed

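The authors sorted pools of 50 cells, amplified polyadenylated RNA with SMARTer v4, made Nextera XT libraries and sequenced them. Reads were trimmed with AdapterRemoval, aligned with HISAT2 to GRCm38 after removal of ribosomal, mitochondrial and PhiX reads, and counted over the genes of GENCODE M14 by unstranded featureCounts. The submitters' processing notes also name CASAVA 1.8.2. The authors deposited raw read counts for 50600 genes. No molecular identifiers were used, so floors cover counting error only, and reads from 50 cells after amplification are not independent molecules.

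From these counts, edgeR 4.0.16 (R 4.3.3) was run with TMM scaling, glmQLFit and glmQLFTest for each pair of cell types, on the genes that reached 10 counts in 4 or more of the 8 libraries. Benjamini-Hochberg adjusted p under 0.05 was taken as a call, and the SE of a log2 fold change is its size divided by the root of F. The calculation was run on simulated counts with known folds. Recovery was required only at a low simulated spread, so this run does not measure the errors of the calls at the spread of these libraries. A group with at most 3 counts in every library was treated as at the floor. A fold against it is a lower bound, the mean of the other group against 3 counts in each library. Single libraries can lie under that bound. Such bounds do not account for the fewer genes detected in astrocyte libraries. Symbols, positions and exon lengths came from GENCODE M21, which gave a symbol to 50376 of the 50600 identifiers. Promoter windows came from RefSeq on GRCm38.p6.

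The 9 genes and all gene lists were chosen with earlier results of these data known. From each list the called genes were named, at most 4 by the size of the log2 fold change, or the 2 with the highest mean CPM where none was called, and genes named outside that rule are stated as picked after their values were seen. The genes most alike were the 10 with the highest Pearson r. Astrocyte and progenitor columns carry no replicate number and were lettered. Alternatives were DESeq2 1.42.0, its size factors, all 12 libraries in one fit, other count filters, counts thinned to the smallest library and leaving out each library. With a library left out, genes had to reach 10 counts in 3 or more of the remaining libraries, so the set of genes tested changed too. The summed level and calls of 1 further marker list are not reported here.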

Additional observations from a re-analysis of the deposited data

Results flagged for a closer look

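In 5 of the 27 groups of 4 libraries examined (9 genes in 3 cell types), a single library stood apart from the other 3 by Dixon's criterion. Chance meets it in about 1 in 20 groups where values are normally distributed. The criterion was applied to untransformed CPM, many of them near the floor and skewed. That rate therefore does not hold here, and the number flagged is no measure of an excess. For Cacng4 in astrocytes the library that stood apart had 1 count beside 3 libraries at 0. Such a pattern meets the criterion by its construction and is no sign of a library that differs. Pdgfra was 269.7 CPM in astrocyte library a (1266 counts), beside 0.817 to 6.76 CPM in the other astrocyte libraries. It was 5.254 CPM in stem cell library 3 (42 counts), beside 0.186 to 0.410 CPM in the other stem cell libraries. Sox10 was 5.923 CPM in astrocyte library d (29 counts), beside at most 0.426 CPM in the others. Cacng4 was 9.658 CPM in stem cell library 4 (52 counts), beside 0.205 to 0.912 CPM in the others, and in astrocyte library d its level of 0.2042 CPM was 1 count, beside 0 in the other astrocyte libraries. No progenitor library stood apart for any of the 9 genes. Stem cell library 4 was the highest stem cell library for 4 of the 9 genes (Cspg4, Sox10, Lhfpl3 and Cacng4), and 8 of the 9 reached 10 counts in it.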

How the results depend on the processing

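No paired analysis was possible because the columns of astrocytes and progenitors carry no replicate numbers. Of the fitted log2 fold changes of the 9 genes, 0 reversed a call under any alternative. The 6 genes called in each comparison of progenitors were called in every alternative that tested them, Pdgfra over astrocytes in 1 of 14 fits, Cacng4 over stem cells in 3 of 14 and Olig2 and Ptprz1 in none of theirs. With at least 10 counts in every library, which leaves fewer of the 9 genes to test, 2 were called over stem cells and 2 over astrocytes. Leaving out a library gave 6 to 7 of the 9 in both, and 0 to 0 between astrocytes and stem cells.

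Genes called for progenitors over stem cells (1327) were 2394 with DESeq2, 381 with all 12 libraries in one fit and 830 to 1383 with a library left out (830 without progenitor library d). For progenitors over astrocytes (1278) they were 2431 with DESeq2, 529 without a count filter, 287 where every library had to reach 10 counts, and 719 to 1871 with a library left out (719 without progenitor library c and 794 without d). For astrocytes over stem cells (6) they were 635 with DESeq2, 16 without a count filter, 12 with at least 10 counts in every library, 346 with all 12 libraries in one fit and 0 to 8 with a library left out (0 without stem cell library 3 or 4). Fits with a library left out also used a count filter of 3 libraries and so tested other sets of genes. The cause of these changes was not tested. In the 4 lineage lists, the 25 calls over stem cells were 7 to 32 with all libraries kept and 21 to 26 with a library left out, and the 18 over astrocytes were 4 to 24 and 11 to 21. The median of all genes moved by over 0.1 without a count filter, to 0.25 over stem cells and 0.19 over astrocytes, and with an astrocyte library left out, to 0.12 to 0.13 over astrocytes, and for astrocytes over stem cells from 0.14 to 0.02 without astrocyte library a and 0.03 without b. Astrocyte markers called over astrocytes (6) were 1 to 10 with all libraries kept.

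With 5031166 to 12535028 counts a library, levels of 3 counts or fewer, as for Lhfpl3 and Cacng4 in astrocytes, were not separable from 0.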
